A study of Mus musculus with 6 samples.

Results

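The 10 genes described here mark the definitive endoderm, which forms the gut, and the node, the organizer at the tip of the primitive streak that gives rise to the notochord. They are Sox17, Foxa1, Foxa2, Gata4, Gata6, Gsc, Cer1, Noto, Hhex and Cxcr4, and they were chosen by name: every row of the 6 expression tables whose gene column equals a name was taken. All 10 were found, as 10 of 20631 genes and 17 of 30352 transcripts. Their working label calls them transcription factors, which holds for 8 of the 10. Cer1 is a secreted antagonist and Cxcr4 is a cell surface receptor.

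The cells were neuromesodermal progenitors (NMPs), bipotent cells of the caudal epiblast, derived in culture from mouse embryonic stem cells (ESCs). Every group had been grown for 2 days with bFGF and for 1 more day with bFGF plus CHIR99021, a WNT agonist, in N2B27 medium whose B27 supplement held no retinoids. These factors were then removed, and dishes received DMSO alone, 25 nM retinoic acid (RA) or 1 µM RA for 2 h, with 2 dishes per condition. The sample labels give the strain as 129 R1, whereas the methods name C57BL/6 ESCs, kept on mouse embryonic fibroblast feeders before differentiation. The methods call the duplicates technical replicates, so that p-values measure only the spread between dishes of a single line. The comparisons ask which genes respond early to a low and to a high dose of RA.

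RNA-seq tables gave an estimated count and an RPKM value (reads per kilobase of transcript, scaled to the reads of the sample) for each transcript, and both were summed per gene. Summed estimated counts lay between 31753556 and 42029348 per sample. NMP markers were present in the DMSO samples at unlike levels, with an RPKM of 380 and 370 for T and of 39.3 and 38.9 for Nkx1-2. The mean RPKM of the others listed was 58.3 for Fgf8, 10.1 for Evx1, 8.59 for Tbx6, 7.42 for Wnt3a, 5.2 for Sox2 and 5.09 for Cdx2. The pluripotency factor Pou5f1 also had a mean of 445 RPKM in DMSO, while other pluripotency markers listed were far lower. Their means were 19.3 for Nanog, 5.11 for Zfp42, 0.96 for Tfcp2l1, 0.629 for Dppa3, 0.562 for Klf4, 0.411 for Esrrb and 0.121 for Tbx3. All 7 genes listed to check the RA response rose at both doses, among them Rarb, whose RPKM was 0.26 and 0.215 in DMSO, 5.59 and 4.97 at 25 nM and 6.65 and 6.89 at 1 µM. The study reported Rarb, Cdx1 and Gbx2 as activated in these same data, so their rise is no independent check. It lists Stra8 at 1 µM and not at 25 nM, where the mean here was 0.759 RPKM. Of 8 NMP markers, 4 rose and 3 fell at 25 nM, and 3 rose and 3 fell at 1 µM, while 7 of 8 pluripotency markers were not called at either dose. In DESeq2, only Sox2 and Nkx1-2 of the NMP markers rose at each dose, and Tbx6, Fgf8 and Evx1 fell. The calls lost there were Cdx2 (adjusted p = 0.51) and Wnt3a (0.507) at 25 nM and Wnt3a (0.129) at 1 µM.

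In the gastrulating embryo, Nodal signalling through Smad proteins and Foxh1 drives both endoderm and node formation, with the highest activity at the anterior end of the streak. Eomes and Mixl1 act early in this program, Foxa2 is needed for node and notochord, and Sox17 commits cells to endoderm. Gsc marks the organizer, and Cer1 dampens Nodal and BMP signals from anterior endoderm. Cxcr4, the receptor of the chemokine Cxcl12, is a common surface marker of endoderm made from ESCs. RA acts through nuclear receptors on DNA and later patterns the gut along its length.

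The starts of 4 of these genes are printed because they set genes that RA lowered (Cer1, Foxa2 and Foxa1) beside Gsc, which was not called at either dose. Each window runs from 250 bases before to 50 bases after a RefSeq start site in GRCm38.p6 (the mm10 assembly), 5′ to 3′ on the strand of the gene. Capitals mark matches, on either strand, to the motifs listed after the sequences. The Cer1 window is chr4:82885102-82885401, the Foxa2 window is chr2:148045899-148046198 at the start of its most abundant transcript, the Foxa1 window is chr12:57546062-57546361 and the Gsc window is chr12:104473187-104473486, all on the minus strand.
Cer1: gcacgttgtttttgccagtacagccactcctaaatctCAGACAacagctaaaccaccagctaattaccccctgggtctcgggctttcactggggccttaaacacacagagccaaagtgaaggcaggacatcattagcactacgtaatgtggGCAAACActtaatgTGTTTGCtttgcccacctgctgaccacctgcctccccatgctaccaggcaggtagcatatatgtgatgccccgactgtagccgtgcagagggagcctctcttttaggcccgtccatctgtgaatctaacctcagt
Foxa2: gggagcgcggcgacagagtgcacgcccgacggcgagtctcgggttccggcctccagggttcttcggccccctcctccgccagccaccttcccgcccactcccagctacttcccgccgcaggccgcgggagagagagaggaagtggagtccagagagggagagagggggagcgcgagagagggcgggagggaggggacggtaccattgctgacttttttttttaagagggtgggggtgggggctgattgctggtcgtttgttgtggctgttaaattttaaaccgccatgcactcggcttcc
Foxa1: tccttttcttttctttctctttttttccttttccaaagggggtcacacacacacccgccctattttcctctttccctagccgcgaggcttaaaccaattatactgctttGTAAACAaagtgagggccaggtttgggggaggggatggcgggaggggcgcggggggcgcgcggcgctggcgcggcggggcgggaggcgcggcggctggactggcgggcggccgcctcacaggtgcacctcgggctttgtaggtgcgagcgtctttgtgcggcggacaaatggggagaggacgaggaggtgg
Gsc: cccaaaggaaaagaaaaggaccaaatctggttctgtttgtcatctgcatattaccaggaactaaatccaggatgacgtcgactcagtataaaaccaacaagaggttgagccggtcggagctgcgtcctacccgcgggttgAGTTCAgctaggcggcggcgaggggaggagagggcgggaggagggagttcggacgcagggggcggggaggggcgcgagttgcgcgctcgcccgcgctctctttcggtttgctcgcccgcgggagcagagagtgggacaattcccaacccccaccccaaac
Motifs were searched as letters on both strands, and a direct repeat contains the single receptor sites, so that these overlap. Forkhead sites were searched as TGTTTNC, RA receptor sites as AGGTCA and as its variant AGTTCA, a TCF/LEF site as CTTTGA, a Goosecoid and Otx site as TAATCC, a Smad site as CAGACA and a T-box site as GGTGTGA. Direct repeats of a receptor site with 1, 2 or 5 bases between (DR1, DR2 and DR5) were searched as well, with each of the sites being either of the receptor sites named, GGGTCA or the variant GGTTCA.

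The Cer1 window held 2 forkhead matches on opposite strands, at -99 and -85 relative to the start site, and a Smad match at -213. The Foxa1 window held a forkhead match at -141, and the Gsc window an AGTTCA match at -110. No motif matched in the Foxa2 window printed. Of the 9 windows found for 7 of the 10 genes, those of Cer1, Foxa1, Noto and Cxcr4 held TGTTTNC, and 20.5% of 32851 mouse promoter windows of the same length do. AGGTCA, present in 16.3% of all windows, matched in none of the 9, and neither did DR1, DR2 or DR5, which were found in 0.222%, 0.268% and 0.0974% of all windows. CTTTGA (16.0% of windows) matched in Noto and in another Foxa2 window, CAGACA (21.0%) and AGTTCA (14%) as given above, and TAATCC (7.06%) and GGTGTGA (3.98%) in none. A match in so short a window is a description of letters and not of binding.

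RA lowered part of the group and raised none of it. At 25 nM RA, 5 of the 10 genes fell (Sox17, Foxa1, Foxa2, Gata6 and Cer1), none rose and 5 did not pass the test. At 1 µM RA, 6 fell, the same 5 and Noto, none rose and 4 did not pass (Gata4, Gsc, Hhex and Cxcr4). Genes were called at an adjusted p under 0.1 in edgeR's likelihood ratio test across all 15143 genes tested, all 10 of which passed the filter on low counts. Of all genes tested, 3.55% were called lower and 4.5% higher at 25 nM, and 11.2% lower and 8.54% higher at 1 µM. With DESeq2, and again without DMSO replicate 1, 3 of the 10 were called at each dose, Sox17, Foxa2 and Cer1. The median log2 fold change of the 10 was -0.28 at 25 nM and -0.27 at 1 µM, against -0.001 and 0.001 over all genes. The DMSO samples were the controls of both doses, so that the counts at the 2 doses are not independent. Both RA samples lay below both DMSO samples in RPKM for 7 of the 10 at 25 nM and for 6 of the 10 at 1 µM, as they did for 20.8% and 25.4% of all genes tested. In bulk RNA, fewer cells that express a gene and less of its RNA per cell cannot be told apart.

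**Figure D1:**
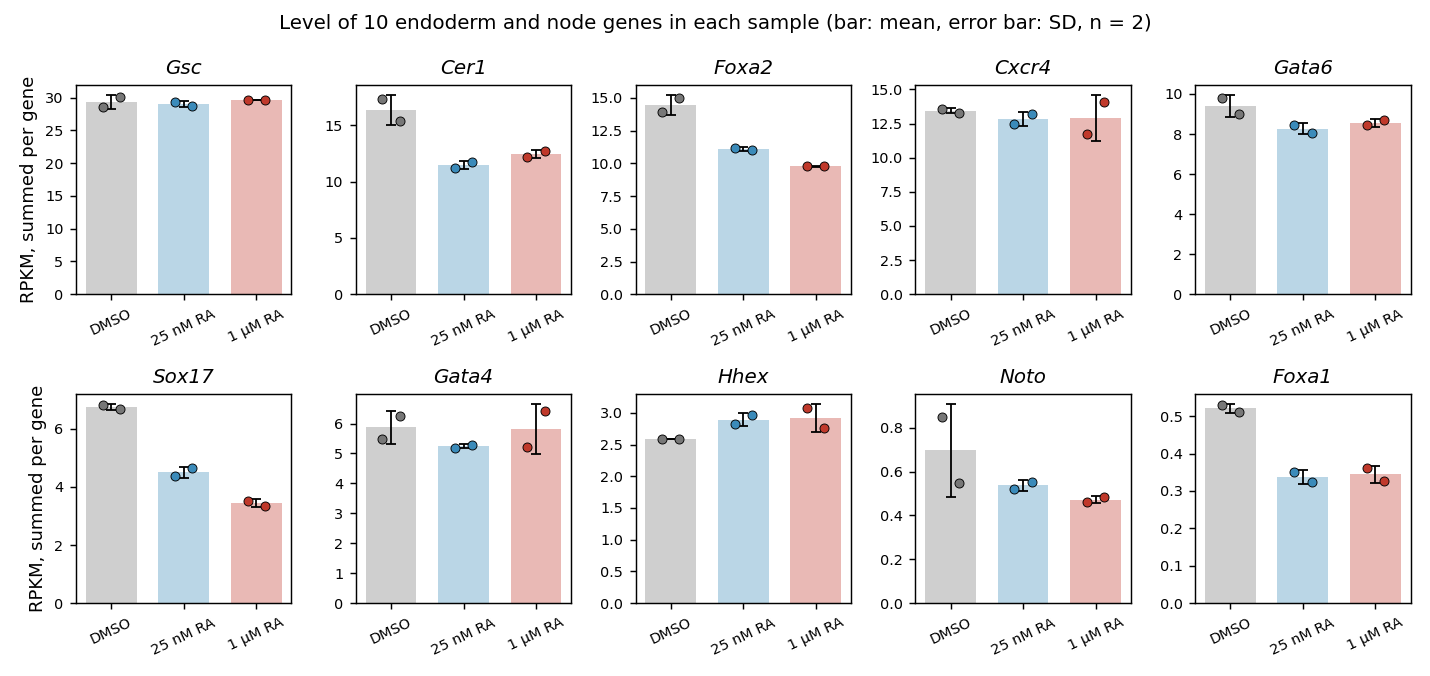
RPKM summed per gene in each of the 6 samples, a panel per gene in the order of the DMSO level, with points for samples, bars for the mean and error bars for the SD of 2 dishes. Sox17 steps down from 6.76 in DMSO to 4.5 at 25 nM and 3.43 at 1 µM RA, while Gsc stays between 28.6 and 30.1 in all samples.

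Sox17, an HMG-box factor that commits cells to endoderm, had the largest fall of the 10 at 1 µM, and at 25 nM the largest after Foxa1. The gene lies at chr1:4490928-4497354 on the minus strand of mm10. Its RPKM was 6.84 and 6.68 in DMSO, 4.37 and 4.64 at 25 nM and 3.53 and 3.34 at 1 µM, from 490 to 1174 counts per sample. The 3 groups did not overlap, and the level was lowest at the higher dose. At 25 nM it fell by 33.2%, a log2 fold change of -0.58 (SE 0.07) with an adjusted p of 8.35e-15 in the edgeR likelihood ratio test. At 1 µM it fell by 49.3%, a log2 fold change of -0.98 (SE 0.0733) with an adjusted p of 3.47e-39. Sox17 was the only gene of the 10 that passed the test between the doses, with a log2 fold change of -0.40 (SE 0.0774) for 1 µM against 25 nM and an adjusted p of 8.94e-05. In this direct comparison 2.62% of all genes were called lower and 0.792% higher. These calls stood in DESeq2 and in edgeR's quasi-likelihood test, whose adjusted p for the direct comparison was 0.0101.

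Foxa2, a forkhead factor needed for node, notochord and gut, had the next largest fall at 1 µM among the genes with an RPKM above 1. It lies at chr2:148042877-148046969 on the minus strand. Its RPKM was 13.9 and 15.0 in DMSO, 11.2 and 11 at 25 nM and 9.76 and 9.8 at 1 µM. All RA samples were below both DMSO samples, and the 1 µM samples below the 25 nM samples. The log2 fold change was -0.38 (SE 0.0632) at 25 nM, with an adjusted p of 1.78e-07 in the edgeR fit, and -0.57 (SE 0.0642) at 1 µM, with an adjusted p of 9.61e-17. Between the doses the log2 fold change was -0.19, with a 95% interval of -0.32 to -0.06 and an adjusted p of 0.113 that misses the threshold, and it was 0.0692 when counts were scaled to total counts.

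Foxa1, the closest relative of Foxa2 and active in endoderm, was the least abundant of the 10. It lies at chr12:57540632-57546121 on the minus strand. Its RPKM was 0.53 and 0.512 in DMSO, 0.351 and 0.324 at 25 nM and 0.361 and 0.328 at 1 µM, from 43 to 87 counts per sample. Both doses lay below DMSO and overlapped each other. The log2 fold change was -0.64 (SE 0.199) at 25 nM, with an adjusted p of 0.0223 in the edgeR fit, and -0.60 (SE 0.197) at 1 µM, with an adjusted p of 0.0169. DESeq2 called neither (adjusted p of 0.569 and 0.293). Leaving out DMSO replicate 1 ended the call at both doses, as did leaving out either 25 nM sample at 25 nM and 1 µM replicate 2 at 1 µM (adjusted p up to 0.302 and 0.156).

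Gata4 and Gata6 are zinc finger factors of endoderm and of cardiac mesoderm. Gata6, at chr18:11052510-11085635 on the plus strand, had an RPKM of 9.79 and 9.0 in DMSO, 8.46 and 8.07 at 25 nM and 8.43 and 8.7 at 1 µM. The RA samples lay below DMSO by a small margin. Its log2 fold change was -0.19 (SE 0.0618) at 25 nM, with an adjusted p of 0.0312 in the edgeR fit, and -0.14 (SE 0.0615) at 1 µM, with an adjusted p of 0.099. DESeq2 called neither (0.281 and 0.332), and without DMSO replicate 1 the log2 fold changes were -0.13 and -0.09, with an adjusted p of 0.514 and 0.581. The start of Gata6 overlaps the antisense gene 1010001N08Rik, whose transcripts averaged 12.8 and 5.9 counts, and whether counting used strand is not given in the sources used here.

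Gata4, at chr14:63198914-63245271 on the minus strand, had an RPKM of 5.49 and 6.25 in DMSO, 5.19 and 5.29 at 25 nM and 5.23 and 6.42 at 1 µM. The 1 µM samples spanned the range of the DMSO samples. The 95% interval of its log2 fold change was -0.34 to 0.01 at 25 nM (adjusted p = 0.372) and -0.19 to 0.15 at 1 µM (adjusted p = 0.933, edgeR). The summed RPKM of cardiac mesoderm markers was 59.2 and 62.9 in DMSO, 46.5 and 45.8 at 25 nM and 45.1 and 52.2 at 1 µM. Of 8 such markers 4 were tested, and Mesp1 and Isl1 fell at both doses while Myl7 rose at 1 µM. DESeq2 did not call Isl1 at 25 nM (adjusted p = 0.285). Mesp1, an early mesoderm factor, carried most of the sum, with 47.9 and 49.4 RPKM in DMSO and 33.9 and 31.8 at 25 nM. Myl7 had 10.1 and 12.4 RPKM in DMSO, 11.9 and 13.2 at 25 nM and 13.3 and 17.4 at 1 µM. Isl1 had a mean of 0.722 RPKM in DMSO. Hand1 and Hand2 had at most 0.184 and 0.142 RPKM, and Nkx2-5, Tbx5 and Tnnt2 stayed under 0.1 RPKM. The part of cardiac mesoderm cells in the GATA values was not tested.

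Gsc, a homeobox factor of the organizer, was the most abundant of the 10 and showed no call. At chr12:104471209-104473236 on the minus strand, it had an RPKM of 28.6 and 30.1 in DMSO, 29.3 and 28.7 at 25 nM and 29.6 and 29.6 at 1 µM. All groups overlapped DMSO. The 95% interval of its log2 fold change was -0.13 to 0.09 at 25 nM and -0.11 to 0.12 at 1 µM, with an adjusted p of 0.944 and 0.97 in the edgeR fit. These are the narrowest intervals of the 10 and leave out a change as large as that of Sox17, Foxa2 or Cer1.

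Noto, a homeobox factor of node and notochord, was detected at a low level. At chr6:85423886-85428877 on the plus strand, it had an RPKM of 0.848 and 0.546 in DMSO, 0.519 and 0.555 at 25 nM and 0.46 and 0.483 at 1 µM, from 32 to 70 counts. The DMSO samples differed more from each other than any RA sample did from DMSO replicate 2. The log2 fold change was -0.40 (SE 0.249) at 25 nM, with an adjusted p of 0.493 in the edgeR fit, and -0.59 (SE 0.256) at 1 µM, with an adjusted p of 0.0984. Without DMSO replicate 1 the latter was -0.22, with an adjusted p of 0.75. The quasi-likelihood test (0.131) and DESeq2 (0.473) did not call it.

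Hhex, a homeobox factor of anterior endoderm and the liver bud, was the single gene of the 10 whose RA samples lay above DMSO at both doses. At chr19:37434841-37440731 on the plus strand, it had an RPKM of 2.59 and 2.59 in DMSO, 2.82 and 2.97 at 25 nM and 3.08 and 2.76 at 1 µM. The difference did not pass the test. The 95% interval of the log2 fold change was -0.06 to 0.38 at 25 nM (adjusted p = 0.577) and -0.05 to 0.39 at 1 µM (adjusted p = 0.347, edgeR), from 192 to 254 counts per sample.

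Cer1, the secreted antagonist of Nodal and BMP ligands, fell at both doses. It lies at chr4:82881751-82885151 on the minus strand, and its window with 2 forkhead matches is printed above. Its RPKM was 17.3 and 15.4 in DMSO, 11.2 and 11.7 at 25 nM and 12.2 and 12.7 at 1 µM. The lowest DMSO sample was above the highest RA sample. At 25 nM it fell by 30%, a log2 fold change of -0.52 (SE 0.0691) with an adjusted p of 8.39e-12 in the edgeR fit. At 1 µM it fell by 24.3%, a log2 fold change of -0.40 (SE 0.0683) with an adjusted p of 1.44e-07. Unlike Sox17 and Foxa2, its 1 µM samples lay above its 25 nM samples, but that difference of 0.11 (95% interval -0.03 to 0.25) had an adjusted p of 0.517. Both calls against DMSO stood in DESeq2, in the quasi-likelihood test and with any single sample left out.

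Cxcr4, the receptor, was not called. At chr1:128588199-128592299 on the minus strand, it had an RPKM of 13.6 and 13.3 in DMSO, 12.5 and 13.2 at 25 nM and 11.7 and 14.1 at 1 µM. The 1 µM samples lay on either side of DMSO. The log2 fold change was -0.06 at 25 nM (95% interval -0.21 to 0.09, adjusted p = 0.833) and -0.07 at 1 µM (-0.21 to 0.08, adjusted p = 0.626, edgeR). Without 1 µM replicate 2 it was -0.20, with an adjusted p of 0.0686. Its ligand and other receptor moved: Ackr3, a scavenging receptor for Cxcl12, had an RPKM of 1.51 and 1.29 in DMSO, 1.99 and 2.14 at 25 nM and 2.81 and 3.03 at 1 µM, and its log2 fold change was 0.56 (adjusted p = 0.000384) and 1.05 (adjusted p = 2.4e-16). Cxcl12, named after its values were seen, rose from 0.63 and 0.668 to 0.924 and 1.04 at 25 nM and to 0.856 and 0.912 at 1 µM. DESeq2 called Cxcl12 at neither dose (adjusted p of 0.168 and 0.441), and the quasi-likelihood test did not at 1 µM (0.114). Of the 5 partners tested these 2 were called higher in the main test and Ackr3 alone in DESeq2. Arrb1, Arrb2 and Gnai2 were not called at either dose in these 2 tests. The quasi-likelihood test called Arrb1 higher at 1 µM (adjusted p = 0.0958).

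**Figure D2:**
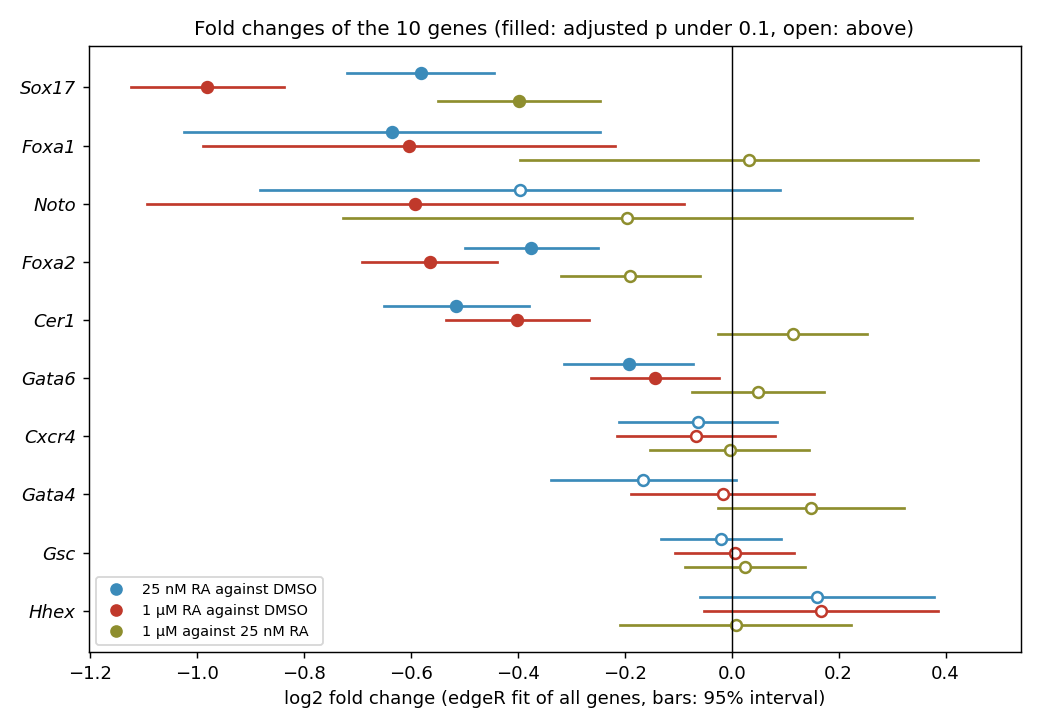
Log2 fold change of each gene in 3 comparisons from the edgeR fit of all genes, with bars for the 95% interval, filled points for an adjusted p under 0.1 and open points above it. Filled points stand for 5 genes at 25 nM, 6 at 1 µM and Sox17 alone between the doses, and the bars of Foxa1 and Noto, with under 90 counts per sample, are the widest.

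The 10 genes spanned a wide range of levels. In DMSO, the mean RPKM ran from Gsc (29.4 ± 1.12, SD, n = 2) through Cer1 (16.3 ± 1.34), Foxa2 (14.4 ± 0.772), Cxcr4 (13.4 ± 0.215), Gata6 (9.4 ± 0.562), Sox17 (6.76 ± 0.114), Gata4 (5.87 ± 0.54), Hhex (2.59 ± 0.00139) and Noto (0.697 ± 0.214) to Foxa1 (0.521 ± 0.0129). Each step exceeded the combined SD of its 2 genes except that from Noto to Foxa1. At 25 nM RA, Cxcr4 (12.9) stood above Cer1 (11.5) and Foxa2 (11.1), whose own gap did not exceed their SD, and Gata4 (5.24) stood above Sox17 (4.5). At 1 µM, Gata4 (5.82) was again above Sox17 (3.43), and Cxcr4 and Cer1 did not differ beyond their SD.

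Of the 10 genes 3 had several transcripts. Sox17 had 5, of which NM_001289464 took 88.9% to 95.7% of the gene's counts. Its RPKM was 6.35 and 6.44 in DMSO, 4.2 and 4.2 at 25 nM and 3.32 and 3.1 at 1 µM. In a fit of all 22074 transcripts tested it fell at 25 nM (log2 fold change -0.61, SE 0.105, adjusted p = 9.96e-07), at 1 µM (where it fell by 50.1%, SE 0.108 on the log2 scale, adjusted p = 4.1e-18) and between the doses (-0.39, SE 0.111, adjusted p = 0.0394). The last of these calls was lost in the quasi-likelihood test (0.394) and in DESeq2 (0.423). NM_011441, the next, had 0.163 to 0.427 RPKM and was not called, and the other 3 were too low to be tested.

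Foxa2 had 3 transcripts with separate start sites, and the fall was called for the main one, NM_001291065, whose start is printed above. It took 63.6% to 71.3% of the counts, with an RPKM of 9.68 and 10.4 in DMSO, 7.31 and 7.93 at 25 nM and 7.0 and 6.29 at 1 µM. Its log2 fold change was -0.40 (SE 0.119, adjusted p = 0.0322) and -0.60 (SE 0.12, adjusted p = 3.72e-05, edgeR). The call at 25 nM was lost in the quasi-likelihood test (0.214) and in DESeq2 (0.233). NM_010446 ranged from 1.58 to 3.45 RPKM and NM_001291067 from 0.757 to 1.47, and neither was called, with wide standard errors of 0.344 to 0.356. Gata4 divided its counts between NM_008092 (53.8% to 72.1%) and NM_001310610 (27.9% to 46.2%), and neither was called. Of the 17 transcripts 14 were tested, and those called lower were 3 at 25 nM (Sox17, Foxa2 and Cer1), the same 3 at 1 µM and 1 between the doses, against 1.44%, 4.5% and 1.1% of all transcripts. Foxa1, Gata6 and Noto, which have 1 transcript each, were called in the gene fit and not in the transcript fit, where the adjusted p was 0.493, 0.295 and 0.958 at 25 nM and 0.327, 0.401 and 0.549 at 1 µM. Splitting of reads between transcripts of a gene is an estimate, and it moved between duplicates.

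**Figure D3:**
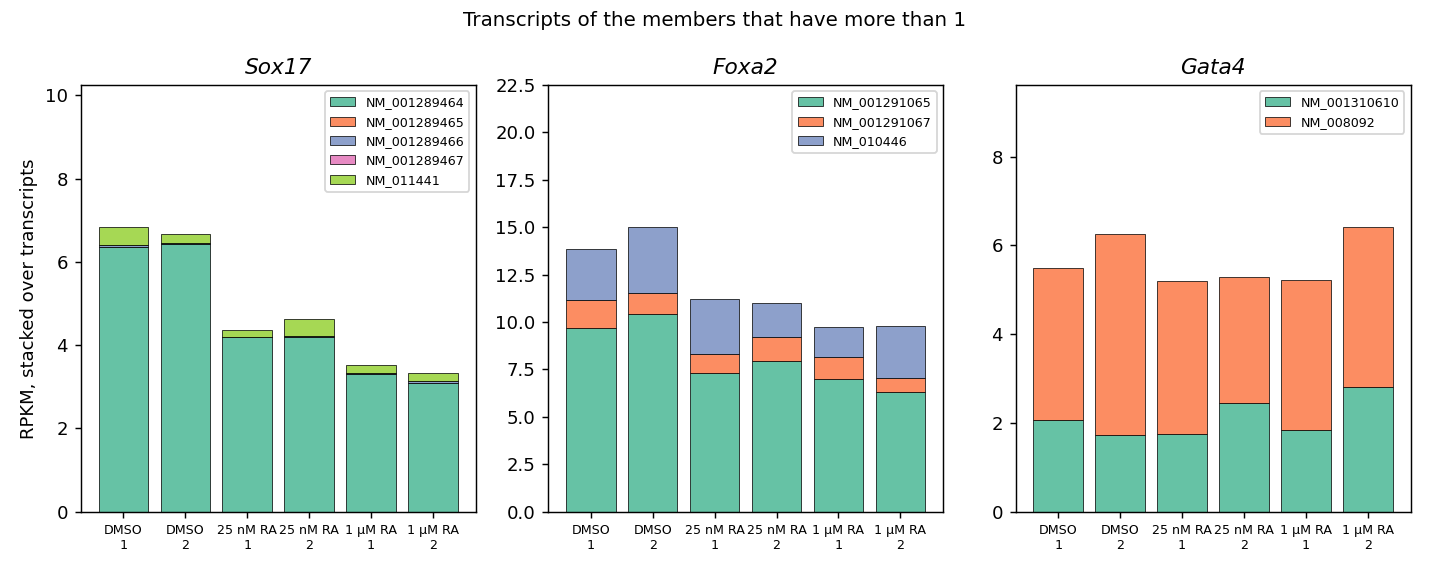
RPKM of each transcript of Sox17, Foxa2 and Gata4, stacked per sample in 6 columns per panel. The main Sox17 transcript falls from 6.35 and 6.44 in DMSO to 3.32 and 3.1 at 1 µM RA, while the 2 transcripts of Gata4 trade shares between duplicates.

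None of the 10 genes, summed over transcripts, passed the thresholds by which the study listed repressed genes. These were read here as an RPKM above 7 in DMSO and a log2 fold change below -0.6 beside the adjusted p. The study applied them to transcripts, and none of the 17 transcripts here passed them either. Of all genes tested 0.033% passed them at 25 nM and 0.139% at 1 µM. Sox17 at 1 µM had the fold change (-0.98) but a DMSO RPKM of 6.76, the highest of its 3 group means. Foxa1 had the fold change at both doses (-0.636 and -0.603) but a DMSO RPKM of 0.521. Foxa2 at 1 µM had the level (14.4) but a log2 fold change of -0.57.

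The other genes of endoderm, node and axial mesoderm moved both ways. Of 22 such genes tested, 6 fell, 3 rose and 13 were not called at 25 nM, and 7 fell, 4 rose and 11 were not called at 1 µM. In DESeq2, 4 fell and 2 rose at 25 nM, and 5 fell and 3 rose at 1 µM. Their median log2 fold change was -0.01 at 25 nM and -0.07 at 1 µM. Between the doses 2 were lower at 1 µM (Dand5 and Dkk1) and 2 higher (Prdm1 and Trh), of which DESeq2 called Prdm1 alone. The 3 that rose at 25 nM were Prdm1, Trh and Gata5, and the 4 that rose at 1 µM were Prdm1, Trh, Mixl1 and Sfrp5. Gata5 had at most 0.11 RPKM, and its call was lost in the quasi-likelihood test (adjusted p = 0.153). Sfrp5 had at most 0.443 RPKM, from 12 to 37 counts per sample, and DESeq2 gave it no adjusted p at 1 µM.

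Otx2, a homeobox factor of the anterior epiblast, had an RPKM of 28.7 and 27.4 in DMSO, 19.6 and 21 at 25 nM and 18.9 and 19.8 at 1 µM (log2 fold change -0.47 and -0.55). Dkk1, a WNT antagonist, had 2.9 and 2.51, then 2.42 and 2.35, then 1.68 and 1.83, and was called at 1 µM (-0.64, adjusted p = 6.35e-07) and between the doses (adjusted p = 0.0128, edgeR), where DESeq2 gave 0.31. Otx2 thus fell at both doses, and Dkk1 at 1 µM. The study, by transcript and with its own fold change limit, lists Otx2 as repressed at 25 nM and not significantly so at 1 µM. Lhx1, a LIM homeobox factor of the organizer, and Eomes, named after its values were seen, fell at both doses as well, Lhx1 from 23 and 24.3 RPKM to 18.3 and 19 at 25 nM and 16.6 and 16.7 at 1 µM, and Eomes from 48.4 and 47.1 to 40.1 and 40.7 and to 37.5 and 39.7.

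Prdm1 and Trh rose at both doses. Prdm1, which encodes the repressor Blimp1, had an RPKM of 0.888 and 0.949 in DMSO, 2.22 and 2.37 at 25 nM and 3.32 and 3.23 at 1 µM (log2 fold change 1.32 and 1.83). Trh, a peptide hormone gene, had 17.5 and 18.3, then 23.9 and 25.4, then 28 and 29.8 (0.46 and 0.69). Dand5, a Nodal antagonist of the node, had 1.02 and 1.09, then 1.21 and 1.15, then 0.564 and 0.891, and was called lower at 1 µM (adjusted p = 0.0624) and between the doses (0.0703, edgeR), calls that were lost in the quasi-likelihood test (0.108 and 0.174). T, shared by node, notochord and NMPs, was not called (log2 fold change -0.01 and -0.03), and its level of 367 to 380 RPKM was far above that of any of the 10.

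**Figure D4:**
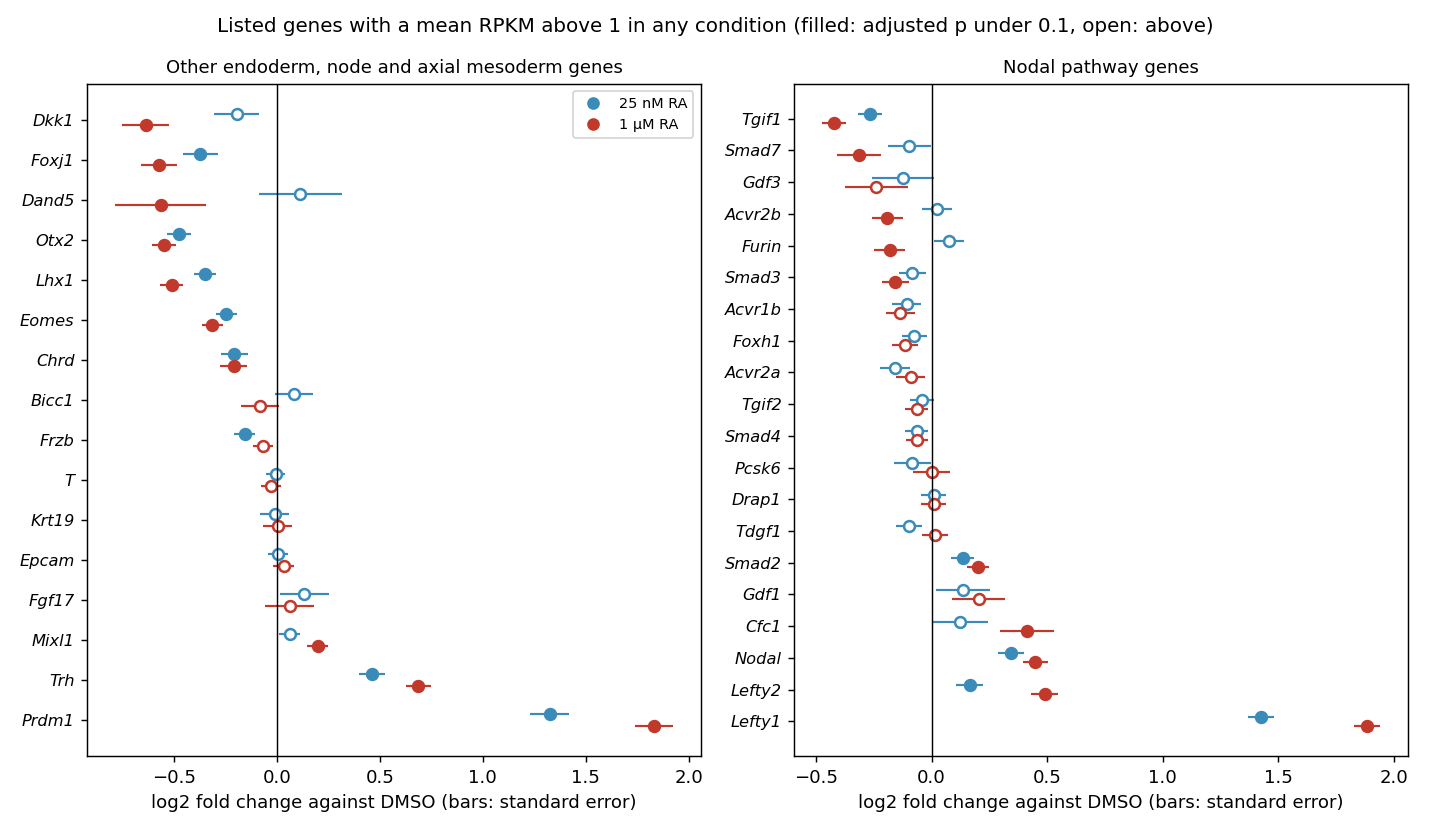
Log2 fold change against DMSO of the listed genes with a mean RPKM above 1 in any condition, for other endoderm, node and axial mesoderm genes on the left and Nodal pathway genes on the right, with bars for the standard error and filled points for an adjusted p under 0.1. Otx2, Foxj1 and Lhx1 lie to the left of 0 at both doses, and Prdm1 (1.32 and 1.83) and Lefty1 (1.43 and 1.89) lie farthest to the right.

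The Nodal pathway, which acts upstream of many of these genes in the embryo, rose at its ligand and feedback antagonists while the antagonist Cer1 fell. Of 20 pathway genes tested, 1 fell, 4 rose and 15 were not called at 25 nM, and 5 fell, 5 rose and 10 were not called at 1 µM. In DESeq2, Tgif1 alone fell at either dose, Nodal and Lefty1 rose at 25 nM, and these 2 with Lefty2 and Smad2 rose at 1 µM. Nodal itself had an RPKM of 17.9 and 16.9 in DMSO, 22 and 22.3 at 25 nM and 24.2 and 23.6 at 1 µM (log2 fold change 0.34 and 0.45). The antagonist Lefty1 had 20.9 and 22, then 59.9 and 55.8, then 78.5 and 80.9 (1.43 and 1.89), and it was also higher at 1 µM than at 25 nM (0.46, adjusted p = 1.63e-15, edgeR). Lefty2 had 36 and 39.1, then 40.8 and 43.5, then 51.6 and 54.4, and its log2 fold changes were 0.17 and 0.49. At 25 nM its adjusted p was 0.0633 in edgeR and 0.15 in DESeq2. The RA samples of these 3 genes lay above both DMSO samples.

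The co-receptor gene Cfc1 had 3.4 and 3.76 RPKM in DMSO and 4.64 and 4.91 at 1 µM, where it was called (log2 fold change 0.41, adjusted p = 0.00451, and 0.162 in DESeq2). Smad2, a signal transducer, was called higher at 25 nM by a narrow margin (0.13, adjusted p = 0.0887, and 0.255 in DESeq2) and at 1 µM (0.20), with 8.77 and 8.65 RPKM in DMSO and 9.93 and 10.2 at 1 µM. Tgif1, a corepressor of Smads, fell from 47.4 and 45.6 to 39.8 and 38.3 and to 33.8 and 36 (-0.27 and -0.42). Furin and Acvr2b, a processing protease and a receptor, were lower at 1 µM than at 25 nM (-0.26 and -0.21, with 0.138 and 0.38 in DESeq2), and both, with Smad3 and Smad7, were among the 5 that fell at 1 µM against DMSO. Tdgf1, Foxh1, Smad4 and Drap1 were not called at either dose. The study, which tested transcripts, lists Drap1 as activated at 25 nM and not significantly so at 1 µM, whereas the values here are summed per gene.

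Markers of extraembryonic endoderm, which shares Sox17, Foxa2, Gata4 and Gata6 with the embryo's own, were mostly at low levels but not absent. Of 12 such markers, 4 had a mean under 0.1 RPKM in each condition (Afp, Apoa1, Hnf4a and Thbd), and none was at 0 in all samples. Dab2 had 0.857 to 1.14 RPKM, Amn 0.491 to 0.802, Cubn 0.427 to 0.763, Apob 0.314 to 0.427 and Ttr 0.113 to 0.447, in the range of Foxa1 and Noto or above for the first 3, and Sox7 had 0.0892 to 0.174. The summed level was 64.5 and 64.3 in DMSO, 60.6 and 60.4 at 25 nM and 61.1 and 64.3 at 1 µM, mostly Lamb1 and Pdgfra, which many cell types express. Of 9 tested, Lamb1 fell and Pdgfra rose at both doses and 7 were not called. Feeder fibroblast markers summed to between 7.46 and 8.8 RPKM, with none of 7 called at 25 nM and 4 lower at 1 µM (Col1a1, Col1a2, Postn and Fbn1), none of which DESeq2 called. Blood and endothelium markers summed to between 6.0 and 8.14 RPKM, and of 6 tested Pecam1 rose at both doses (0.165 in DESeq2 at 1 µM) while at 1 µM Etv2 rose and Kdr fell. The part of such cells in the 10 genes' values was not tested.

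For each gene that fell at both doses, the 3 genes nearest in the pair of log2 fold changes were taken from about 850 genes called at both doses. For Foxa2 (-0.38 and -0.57) these were Foxj1 (-0.37 and -0.57), a ciliary factor of the node, Adra2a (-0.38 and -0.55), an adrenergic receptor, and Tbx6 (-0.37 and -0.55), a presomitic mesoderm factor. For Sox17 (-0.58 and -0.98) they were Ptger4 (-0.57 and -0.96), Arc (-0.57 and -1.02) and Leng9 (-0.54 and -0.96). For Cer1 (-0.52 and -0.40) they were Adra2b (-0.47 and -0.39), Slc37a1 (-0.46 and -0.41) and Six5 (-0.46 and -0.40). For Foxa1 they were Itgb8, Kitl and D7Ertd143e, and for Gata6 Zfp322a, Pkp2 and Epm2aip1. Likeness here rests on 2 values from 6 samples with shared controls.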

How the data were processed

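RNA-seq of ribosomal RNA-depleted total RNA was made from 6 samples of NMPs, grouped by the sample labels as DMSO, 25 nM RA and 1 µM RA with 2 dishes each. Per the methods and labels, 50 bp single-end reads were aligned to mm10 with TopHat (TopHat2 2.0.13, Bowtie2 2.2.5.0, FastQC 0.11 and Partek 6.6 stand in the submitters' processing notes), and abundance of RefSeq transcripts was estimated by expectation-maximization. The authors deposited the resulting estimated counts, which are not normalized, and RPKM values, which the authors scaled by transcript length and the reads of the sample. The RPKM values imply totals between 38466126 and 51499056 reads, of which the estimated counts are 81.2% to 83.2%.

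Estimated counts were summed per gene, rounded, and fitted in edgeR 4.0.16 (R 4.3.3) with TMM normalization, filterByExpr, 1 coefficient per condition for all 6 samples and the likelihood ratio test named in the methods, with Benjamini-Hochberg adjustment over 15143 genes and a threshold of 0.1. The same fit over 22074 transcripts is given beside it. RPKM errors are SDs of 2 dishes, log2 fold changes carry their standard error, and 95% intervals are the fold change ± 1.96 standard errors. Permutation tests were not made, since 2 dishes per group are too few for them. The fits were tried on simulated data with 200 changed features at a fold of 2, in the 1 µM group and with the spread of these data. The outcome is not given here and does not bear on the smaller changes described. Alternatives were the quasi-likelihood test, DESeq2 1.42.0, other scalings and filters, a replicate block, stricter thresholds and leaving out each sample.

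The 10 genes and all lists were chosen with earlier results of these data known. Named beside the 10 were, per list and comparison, at most 5 called genes with the largest absolute fold change and a mean RPKM above 1 in any condition, marker genes that check a cell type, and the 3 genes nearest in pattern. Gene positions come from the tables, whose end column was reduced by 1. Of 14560 genes with 1 transcript matched to RefSeq, that column lay 1 base past the RefSeq end for 8384 and on it for 518. The start was the RefSeq start for 8490, so that positions can differ from RefSeq for other genes. Promoter windows come from a RefSeq table (GRCm38.p6), which matched 7 of the 10 genes, and Foxa1's window starts 10 bases from the end in the tables. Protein sequences were not used here, and some genes of the lists are not reported here. Python 3.11.15 with pandas 2.3.3 and numpy 2.4.6 made the tables, and matplotlib 3.10.9 drew the plots.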

Additional observations from a re-analysis of the deposited data

How the results depend on the processing

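Of 508 values of single genes under an alternative, 456 kept their side of the threshold, 49 lost the call and 3 gained it. No called value changed sign, and 14 values of genes that were not called did. Sox17, Foxa2 and Cer1 were called at both doses in every fit that changed the test, scaling, filter or samples, and Sox17 between the doses. Gata6 and Noto at 1 µM each lost the call in 12 or 13 settings, so that these calls lie at the threshold. The count of the 10 genes called was 5 at 25 nM, 6 at 1 µM and 1 between the doses, and it was 3, 3 and 1 with DESeq2, 2 between the doses with total counts, and 0 in each comparison with the study's list thresholds. Leaving out a sample in turn gave 3 to 5 at 25 nM (3 without DMSO replicate 1 or either 25 nM sample), 3 to 6 at 1 µM (3 without DMSO replicate 1) and 1 to 2 between the doses (2 without 1 µM replicate 1). Of all genes, 1219, 2983 and 516 were called in the 3 comparisons. The counts were 567, 1594 and 158 with DESeq2 and 72, 107 and 5 with the list thresholds, and between the doses 336 with the quasi-likelihood test and 340 at an adjusted p under 0.05. Leaving out a sample gave 799 to 1345 (lowest without 25 nM replicate 2 and, at 800, DMSO replicate 2), 1922 to 2838 (lowest without DMSO replicate 2 and, at 1960, replicate 1) and 205 to 577 (lowest without 25 nM replicate 1 and, at 247, replicate 2). Of all transcripts, 815, 1833 and 398 were called, with 272, 873 and 2 in the quasi-likelihood test, 406, 984 and 121 in DESeq2, 97, 156 and 17 with the list thresholds, and 541 to 976 (lowest without DMSO replicate 2), 1090 to 1832 (lowest without DMSO replicate 2 and, at 1190, replicate 1) and 265 to 599 (lowest without 25 nM replicate 1, highest without 1 µM replicate 2) with a sample left out. Of the 10 genes' transcripts, 3, 3 and 1 were called, with 0, 0 and 0 under the list thresholds, 2 to 3, 2 to 3 and 0 to 1 with a sample left out (1 without 1 µM replicate 1 and 0 without any other), and 0 between the doses with the quasi-likelihood test, DESeq2 and only the 4 samples compared. The cause of these differences was not tested.

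Same-numbered samples showed little shared deviation (correlations of -0.0409, 0.0484 and -0.0615 over 15143 genes). These values cannot tell whether dishes with the same number were handled together. With the replicate block the adjusted p at 1 µM was 0.134 for Gata6 and 0.115 for Noto. In the transcript fit with this block, 375 of all transcripts were called between the doses. Among them were 0 transcripts of the genes described here. Depth limits Noto and Foxa1, with 32 to 87 counts per sample.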
